A study of Mus musculus with 8 samples.

Results

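The clustered histone genes of the mouse were examined in poly(A)-selected liver RNA. Members were the protein-coding genes of the GRCm38 annotation whose symbols follow the pattern Hist1h, Hist2h, Hist3h or Hist4h and then a histone class (H1, H2A, H2B, H3 or H4). The annotation held 67 such genes, of which 65 had a row among the 45706 rows of the count table (*Hist1h2bm* and *Hist1h2bh* had none). The 65 genes comprised 6 H1, 18 H2A, 16 H2B, 12 H3 and 13 H4 genes. The Hist1 cluster on chromosome 13 held 52 of them, the Hist2 cluster on chromosome 3 held 10, the Hist3 cluster on chromosome 11 held 2 and Hist4 on chromosome 6 held 1.

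Livers came from male mice of the strain labelled C56B6/J, 4 labelled Srsf10KD and 4 labelled WT, called *Srsf10-kd* and *Ctrl* here. At 6 weeks of age all mice received an adeno-associated virus (AAV) by tail vein. The virus carried an *Srsf10* hairpin in the first group and a control hairpin in the second, embedded in a microRNA backbone with GFP under the chicken β-actin promoter, which is active in many cell types. From 4 weeks after the injection both groups ate a diet with 60% of calories from fat for 12 weeks, so no liver came from a mouse on standard chow. *Srsf10*, which encodes an RNA-binding protein of the SR family, stood at 30.9 to 35.3 counts per 1000000 counted reads (CPM) in the *Ctrl* livers and at 34.0 to 41.0 CPM in the *Srsf10-kd* livers. Its log2 fold change, *Srsf10-kd* over *Ctrl*, was 0.15 (edgeR adjusted p = 0.378), so its counted RNA was not lower in the livers labelled as knockdown. The paper reports less SRSF10 in livers given this hairpin, as protein by western blot and as RNA by qPCR. Whether those livers include the ones sequenced is not stated. The groups below are named by label only.

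Clustered histone genes supply the core histones (H2A, H2B, H3 and H4) and the linker histone H1 that package newly copied DNA during S phase. Most of their mRNAs are made in dividing cells and end, without a poly(A) tail, just after a short hairpin, the histone stem-loop, that is bound by the protein SLBP and cut with the help of the U7 snRNP. Some of these genes also make transcripts that run on past the stem-loop and carry a poly(A) tail, and resting, differentiated tissues contain such tailed forms. Selection on oligo(dT) retains tailed RNA, so tail-less RNA is largely lost before sequencing.

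The stem-loop was sought in every transcript of the annotation (GENCODE M21, GRCm38) to see which members carry it and how much annotated transcript follows. A match was found in 44 of the 65 genes, against 194 of all 58797 coding transcripts (0.33%). It was present in 4 of 6 H1, 11 of 18 H2A, 8 of 16 H2B, 9 of 12 H3 and 12 of 13 H4 genes. The 44 matches took 8 forms, and the following 7 genes show how the forms differ between classes, with the 16 bases of the stem-loop in capitals and 5 bases on either side, read 5′ to 3′ on the coding strand.
*Hist1h1c* (chr13:23739512-23739527, plus strand): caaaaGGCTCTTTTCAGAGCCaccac
*Hist1h2bg* (chr13:23571843-23571858, plus strand): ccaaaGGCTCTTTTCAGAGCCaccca
*Hist1h3e* (chr13:23561903-23561918, minus strand): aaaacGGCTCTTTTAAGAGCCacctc
*Hist2h2ac* (chr3:96220418-96220433, minus strand): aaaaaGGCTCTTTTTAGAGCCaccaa
*Hist1h4h* (chr13:23531458-23531473, plus strand): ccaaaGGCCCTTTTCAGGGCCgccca
*Hist1h4i* (chr13:22040966-22040981, minus strand): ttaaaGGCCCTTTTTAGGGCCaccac
*Hist1h4j* (chr13:21735437-21735452, plus strand): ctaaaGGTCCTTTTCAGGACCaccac

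The form of *Hist1h1c* was the most frequent, shared by 24 genes of the H1, H2A, H2B and H3 classes and by no H4 gene. The form of *Hist1h3e* was found in 6 genes and that of *Hist2h2ac* in that gene alone. The 12 H4 genes with a match used 4 forms that no other class had, with 7 genes carrying the form of *Hist1h4h* and 2 each those of *Hist1h4i* and *Hist1h4j*. A missing match says only that these letters are absent from the annotated transcripts, and introns were not read.

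Counted reads totalled between 50456404 and 59697241 per liver, so 1 count corresponded to 0.0164 to 0.0199 CPM. The 65 genes together received 85652 counts over the 8 livers, between 0.0158% and 0.027% of the counted reads of a liver. These reads were spread very unevenly. *Hist1h2bc*, an H2B gene, held 58.5% of them and *Hist1h1c*, which encodes a linker histone, held 34.9%, and the pair made up between 92.6% and 94.1% in every liver. The other 63 genes shared 5611 counts. Only 18 genes passed the count filter for testing (edgeR filterByExpr, roughly 10 counts in 4 livers). The other 47 lay below it, and 6 of those had no counted read in any liver. At a floor of 3 counts per library this allows at most 0.0491 to 0.0597 CPM of counted reads. It sets no limit where sequence is shared with another gene, as such reads may go uncounted. The share of 75-base stretches also found in another gene was 100% for *Hist2h2aa1*, *Hist2h3c1* and *Hist2h2bb*. It was 92.65% for *Hist1h2ap*, 87.57% for *Hist1h2br* and 17.41% for *Hist1h2aa*. The 18 tested genes were 3 of the H1, 3 of the H2A, 4 of the H2B, 1 of the H3 and 7 of the H4 genes. The 47 genes below the filter together had 715 counts, and none reached more than 13 in a liver.

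**Figure D1:**
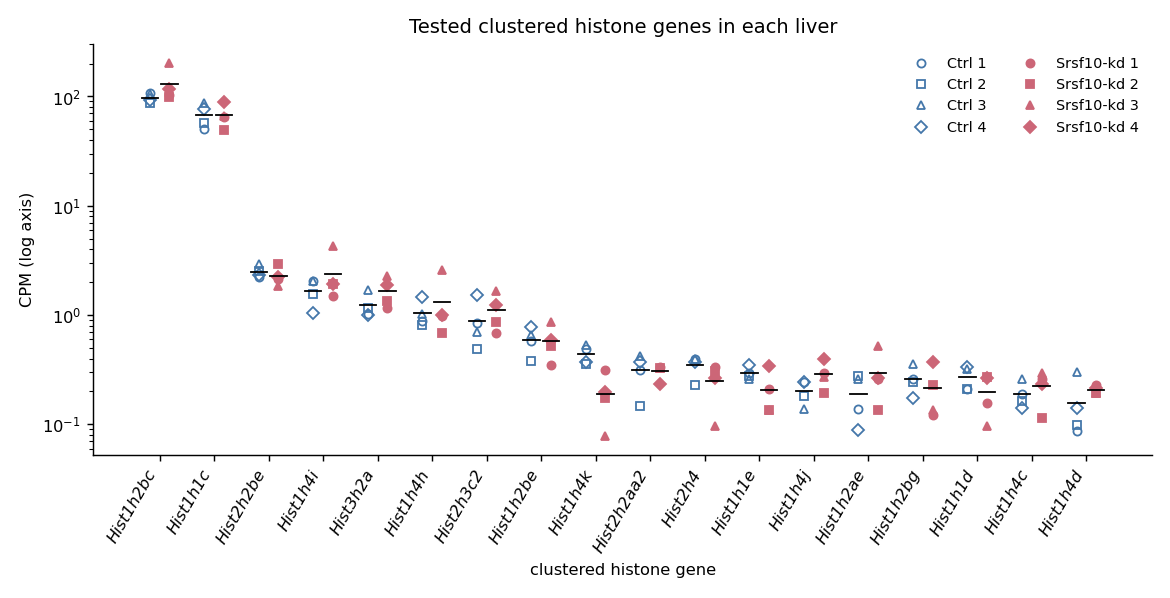
CPM (log axis) of the 18 tested clustered histone genes in each liver, ordered by mean level. Open blue symbols are *Ctrl* livers, filled red symbols *Srsf10-kd* livers, each shape a replicate number, and bars the group means. *Hist1h2bc* and *Hist1h1c* lie between 49.6 and 203.9 CPM in every liver, and the remaining 16 genes lie at or below 4.24 CPM.

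*Hist1h2bc* and *Hist1h1c* differed in their annotated transcripts. *Hist1h2bc* (ENSMUSG00000018102, chr13:23684199-23692908, plus strand) had a single annotated transcript of 1156 bases in 2 exons, with no stem-loop match and no AATAAA or ATTAAA in its last 50 bases. *Hist1h1c* (ENSMUSG00000036181, chr13:23738808-23740367, plus strand) had a transcript of 1560 bases in 1 exon that ran 840 bases past its stem-loop and held a poly(A) signal of that kind near its end. Such a signal was present in the last 50 bases of 17 of the 65 genes and of 50.2% of all coding transcripts. Among the 18 tested genes 9 had it, and among the 47 below the filter 8 had it.

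The genes were then grouped by their annotated end, a grouping made after their values had been seen. In 22 genes the transcript ran on for more than 100 bases past the stem-loop, and 13 of these were tested. Their counts per gene, summed over the 8 livers, had a median of 97 and together made up 38.8% of all clustered histone counts, most of them from *Hist1h1c* (29934 of 33231). In a further 22 genes the transcript ended within 100 bases of the stem-loop. Only *Hist1h4h* and *Hist2h2aa2* of these were tested, the median was 19.5 counts per gene and their share 1.15%. The 4 genes with no match and a transcript over 1000 bases included *Hist1h2bc* and *Hist2h2be* and held 59.7% of the counts. The 17 genes with no match and a shorter transcript had a median of 6 counts, and only *Hist1h4k* was tested. Longer transcripts collect more reads at the same level. Per kilobase of the longest annotated transcript, median levels were 0.1445 CPM in the first group and 0.0860 in the second. They were 0.456 in the third and 0.0302 in the fourth. The groups also differed in how unique their sequence was. The share of 75-base stretches that also occur in another gene had a median of 22.0% in the first group, 57.6% in the second, 57.3% in the third and 73.3% in the fourth. Reads from shared stretches may go uncounted, but the share does not give the reads lost. Every such stretch of *Hist2h2aa2* is shared, yet that gene had 135 counts. The part of transcript length and of shared sequence in the difference between groups was not tested.

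**Figure D2:**
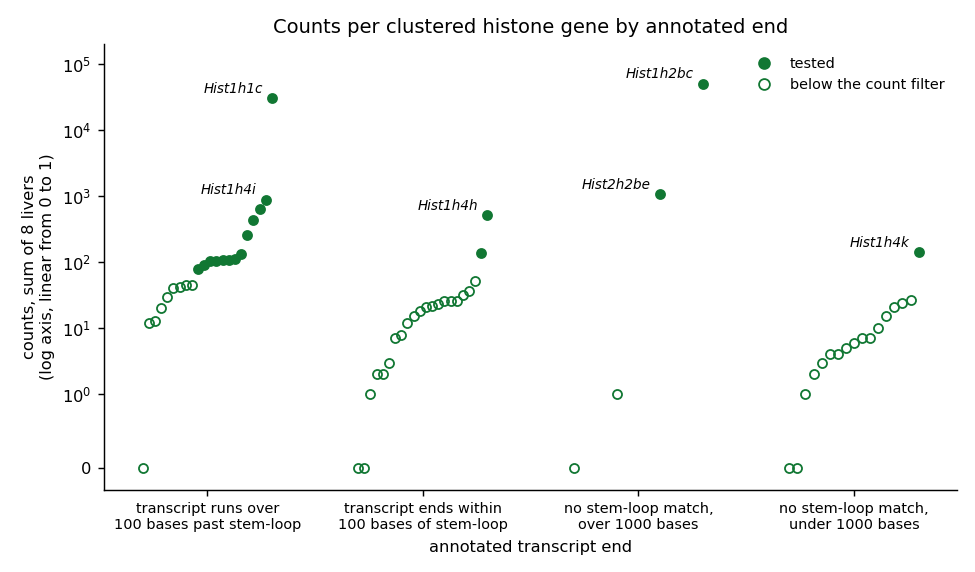
Counts per gene summed over the 8 livers (log axis, linear from 0 to 1) for the 65 clustered histone genes, by annotated transcript end. Filled points are tested genes and open points lie below the count filter. Among the genes whose transcript runs on past the stem-loop 13 of 22 are tested, and among those that end near it 2 of 22.

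H2A and H2B genes are often arranged head to head around a shared promoter. Among the 65 genes 12 pairs lay on opposite strands with starts less than 1000 bases apart (176 to 306 bases), and each joined an H2A with an H2B gene. In 10 of these pairs neither gene exceeded 107 counts over the 8 livers. The others were lopsided. *Hist1h2bc* had 50107 counts and its neighbour *Hist1h2ac*, which starts 251 bases away and was singled out after its values were seen, had 42, with 3 to 9 in a liver. *Hist2h2be* had 1055 counts and its neighbour *Hist2h2ac* had 26. Exons of *Hist1h2ac* overlap those of the annotated genes *Gm24991* and *Gm44350*, and reads in such overlaps may be left uncounted. *Hist1h2ae* and *Hist1h2bg*, with 107 and 105 counts, were the 1 pair in which both genes were tested.

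Levels can be compared between genes only per length of transcript. Per kilobase of the longest annotated transcript, *Hist1h2bc* stood at 98.8 CPM on average over the 8 livers, and 4.48% of the 13396 tested protein-coding genes were higher. *Hist1h1c* stood at 43.5 CPM per kilobase, with 9.05% of coding genes higher. The histone genes outside the clusters, listed here as replication-independent histones, mostly encode variants made outside S phase from polyadenylated mRNA, although *H2afx* also makes a stem-loop mRNA without a tail and *Cenpa* follows the cell cycle. *H3f3b*, which encodes H3.3, reached 69.8 CPM per kilobase, *H1f0*, a linker histone of resting cells, 56.9, *H2afz* (H2A.Z) 37.4 and *H3f3a*, the second H3.3 gene, 24.2. *H2afj* came next, then *H2afy* (macroH2A1) at 16.5, *H2afv* at 15.1 and *H2afx* at 7.24, while *Cenpa* (0.897), *H2afy2* (0.208) and *H1fx* (0.158) were far lower. Below *H2afx* came *Hist1h4i* at 2.79 and *Hist1h4h* at 2.51 CPM per kilobase, the highest of the remaining clustered genes, and *Hist1h4k* (1.01), *Hist2h3c2* (0.977) and *Hist2h2be* (0.911) had neighbouring levels whose ranges over livers overlapped. The last place was taken by *Hist1h1d* at 0.0314, which rests on its annotated transcript of 7425 bases. Before division by length its mean was 0.233 CPM, above *Hist1h4c* (0.207) and *Hist1h4d* (0.181).

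**Figure D3:**
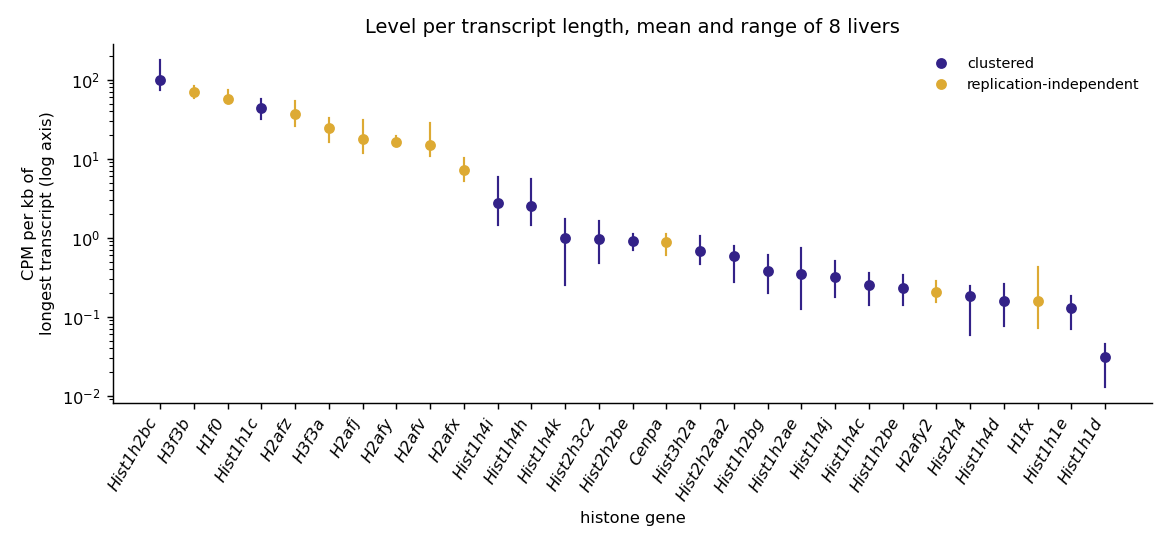
CPM per kilobase of the longest annotated transcript (log axis) for the 18 tested clustered histone genes (dark) and 11 replication-independent histones (yellow). Points are means and lines the ranges over the 8 livers. By mean, *Hist1h2bc* (98.8) lies above all of the replication-independent histones and *Hist1h1c* (43.5) lies among them, while the other clustered genes are at or below 2.79.

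The study's comparison of *Srsf10-kd* with *Ctrl* livers, made to ask what loss of a factor that acts on RNA processing does to liver transcripts, showed no clustered histone gene past the threshold. With edgeR's quasi-likelihood test and Benjamini-Hochberg adjustment over all 15491 tested genes, 0 of the 18 genes had an adjusted p under 0.05, where 0.071% of all tested genes did. At an unadjusted p under 0.05 there was 1 (*Hist1h4k*), against 21.8% of all tested genes. DESeq2 called 0 of them (background 5.21%) and limma-voom with quality weights called 0 (background 11.7%), while at an unadjusted p under 0.05 DESeq2 had *Hist1h4k* alone among the 18 (22.9% of all genes with an adjusted p) and limma-voom had *Hist1h4k* and *Hist1h4d* (31.4% of all tested genes). Of the 18 estimates 9 were above and 9 below 0, where 51.3% of all tested genes were above, and their median log2 fold change was 0.13 against 0.01 over all tested genes. With the trend of each library on transcript length removed, 6 were above and 12 below 0 and the median was -0.13. Groups did not overlap in 1 of the 18 genes, where 14.3% of all tested genes had groups that did not overlap (6.73% higher and 7.53% lower in *Srsf10-kd*). In bulk tissue, fewer cells of a type and less RNA per cell cannot be told apart.

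**Figure D4:**
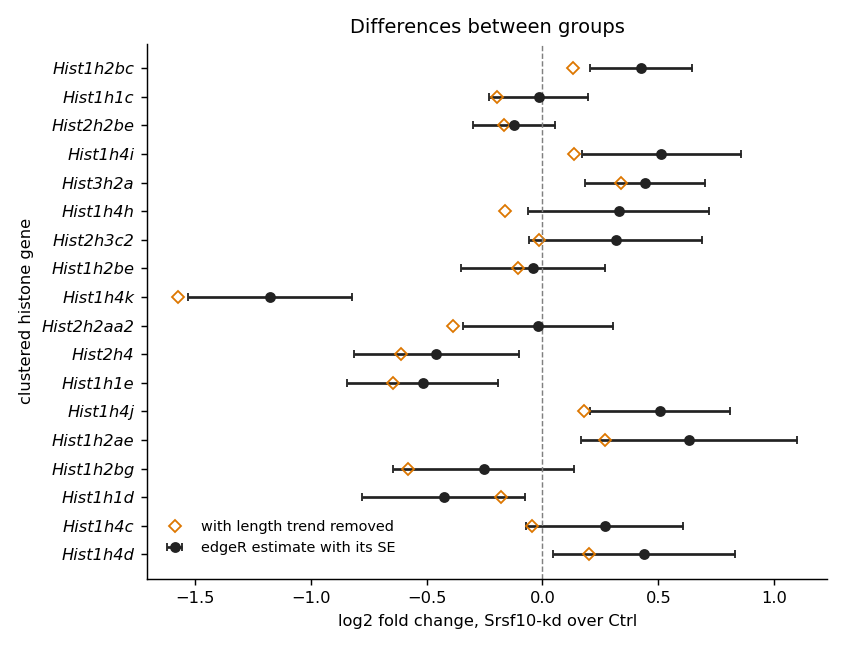
log2 fold change, *Srsf10-kd* over *Ctrl*, of the 18 tested clustered histone genes, ordered by mean level. Black points are edgeR estimates with their SE (4 livers per group) and open diamonds the estimates after the transcript length trend was removed. Estimates run from -1.17 for *Hist1h4k* to 0.63 for *Hist1h2ae*, and *Hist1h4h*, *Hist2h3c2* and *Hist1h4c* lie on the other side of 0 once the trend is removed.

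Summed over all 65 genes, the *Ctrl* livers held 169.4, 154.1, 206.2 and 181.8 CPM in replicates 1 to 4 and the *Srsf10-kd* livers 179.1, 161.2, 287.3 and 219.6 CPM. The third *Srsf10-kd* liver was the highest and the groups overlapped. The means were 178 ± 22.0 CPM in *Ctrl* and 212 ± 56.0 CPM in *Srsf10-kd* (SD, n = 4), a log2 ratio of 0.25. Without the third *Srsf10-kd* liver the log2 ratio was 0.07, and without *Hist1h2bc* it was 0.01. Without both abundant genes, a sum chosen after the data were seen, it was 0.14, with 10.5 to 14.2 CPM in *Ctrl* and 10.7 to 17.1 CPM in *Srsf10-kd*. By class, the log2 ratios were -0.02 for H1, 0.35 for H2A, 0.41 for H2B, 0.15 for H3 and 0.29 for H4, and the groups overlapped in each.

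**Figure D5:**
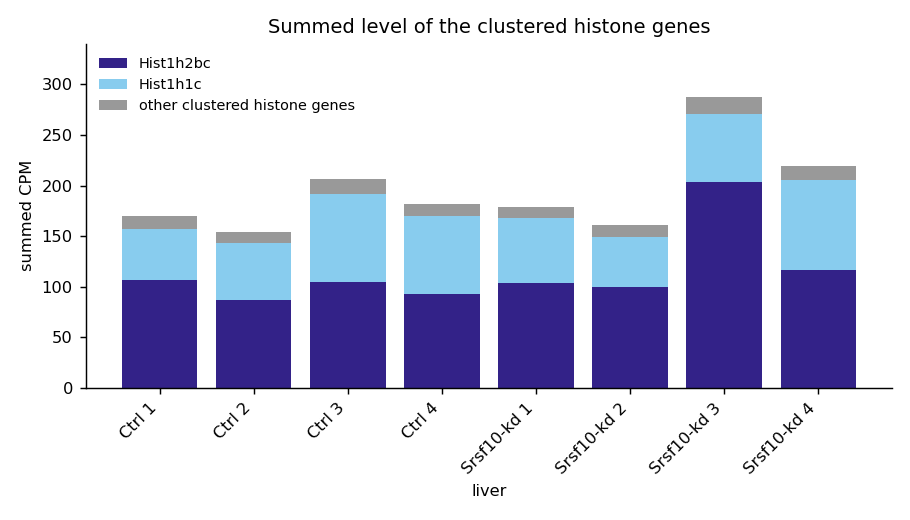
Summed CPM of the 65 clustered histone genes in each liver, split into *Hist1h2bc*, *Hist1h1c* and the other 63 genes. The third *Srsf10-kd* liver has the tallest bar (287.3 CPM), with 203.9 CPM of it from *Hist1h2bc*.

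*Hist1h2bc* stood at 106.8, 86.4, 104.3 and 92.5 CPM in the *Ctrl* livers and at 103.6, 99.7, 203.9 and 116.7 CPM in the *Srsf10-kd* livers. The third *Srsf10-kd* liver was the highest, and the other 7 lay between 86.4 and 116.7 CPM. Its log2 fold change was 0.43 ± 0.22 (SE, edgeR adjusted p = 0.272). Without the third *Srsf10-kd* liver it was 0.13, and with the length trend removed it was also 0.13. With 5186 to 10481 counts per liver this gene was the most precisely counted of the set. Of its 75-base stretches 27.1% also occur in other H2B genes.

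*Hist1h1c* behaved differently from *Hist1h2bc* across the same livers. Its levels were 50.6, 57.2, 87.7 and 77.3 CPM in *Ctrl* and 64.7, 49.6, 66.4 and 89.1 CPM in *Srsf10-kd*, so that both groups spread widely and overlapped almost fully, and the third *Srsf10-kd* liver was in the middle. The log2 fold change was -0.02 ± 0.21 (edgeR adjusted p = 0.969). The other linker histone genes received far fewer counts. *Hist1h1e* lay at 0.259 to 0.351 CPM in *Ctrl* and 0.135 to 0.338 CPM in *Srsf10-kd* (log2 fold change -0.52 ± 0.33, adjusted p = 0.351). *Hist1h1d* lay at 0.208 to 0.334 and 0.0973 to 0.269 CPM (-0.43 ± 0.35, adjusted p = 0.470).

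Among the H4 genes *Hist1h4i* received the most counts, at 2.03, 1.55, 2.05 and 1.05 CPM in *Ctrl* and 1.48, 1.92, 4.24 and 1.91 CPM in *Srsf10-kd*. The third *Srsf10-kd* liver again stood apart, and the log2 fold change of 0.51 ± 0.34 (edgeR adjusted p = 0.375) was 0.08 without it. *Hist1h4h* showed the same liver at 2.59 CPM, where the other 7 lay between 0.692 and 1.46 CPM. Its log2 fold change of 0.33 ± 0.39 (adjusted p = 0.618) was -0.23 without that liver and -0.16 with the length trend removed. *Hist1h4j* lay at 0.139 to 0.246 CPM in *Ctrl* and 0.192 to 0.392 CPM in *Srsf10-kd* (0.51 ± 0.30, adjusted p = 0.329). *Hist2h4* had -0.46 ± 0.35, and *Hist1h4c* and *Hist1h4d* had 0.27 ± 0.34 and 0.44 ± 0.39, all with overlapping groups.

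*Hist1h4k* (ENSMUSG00000064288, chr13:21750194-21750505, minus strand) was the gene with the largest estimate among the 18 and the only one of them whose groups were separate. It stood at 0.486, 0.360, 0.537 and 0.369 CPM in the *Ctrl* livers and at 0.314, 0.173, 0.0778 and 0.196 CPM in the *Srsf10-kd* livers, so every *Srsf10-kd* liver was below every *Ctrl* liver. The lowest was the third *Srsf10-kd* liver, the one in which *Hist1h4i* and *Hist1h4h* were highest. The log2 fold change was -1.17 ± 0.35, with an edgeR adjusted p of 0.139, a DESeq2 adjusted p of 0.0686 and a limma-voom adjusted p of 0.0648, none past the threshold. An exact two-sided permutation test on its log2 CPM gave p = 0.0286 before any adjustment. That is the smallest p that 4 against 4 livers allow. Groups that do not overlap always give it, so it adds nothing to their separation. Of all tested genes 14.3% had such groups. Between 4 and 28 counts per liver lie behind these values. The annotated transcript is only 312 bases long. Of its 75-base stretches 68.1% occur in other H4 genes, where reads may go uncounted, so the counts are uncertain. Without each liver in turn the log2 fold change ranged from -1.53 to -0.92.

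The remaining H2A, H2B and H3 genes had low levels and overlapping groups. *Hist2h2be*, second to *Hist1h2bc* in counts among the H2B genes, lay at 2.20, 2.55, 2.90 and 2.30 CPM in *Ctrl* and 2.13, 2.94, 1.85 and 2.23 CPM in *Srsf10-kd* (log2 fold change -0.12 ± 0.18, edgeR adjusted p = 0.684). No liver stood apart, and the third *Srsf10-kd* liver was the lowest. *Hist3h2a*, the H2A gene with the most counts, reached 1.71 CPM at most in *Ctrl* and 2.26 CPM in *Srsf10-kd* (0.44 ± 0.26, adjusted p = 0.324). *Hist2h3c2*, the only tested H3 gene, lay at 0.491 to 1.51 and 0.680 to 1.65 CPM (0.32 ± 0.37, adjusted p = 0.612). *Hist1h2ae* had the highest estimate, 0.63 ± 0.46 (adjusted p = 0.419), from 5 to 27 counts per liver, and it had 0.22 without the third *Srsf10-kd* liver. Without that liver *Hist3h2a* had 0.26 and *Hist2h3c2* 0.06, and without the fourth *Ctrl* liver *Hist2h3c2* had 0.70. *Hist1h2bg*, the head-to-head neighbour of *Hist1h2ae*, had -0.25 ± 0.39 (adjusted p = 0.707). *Hist1h2be* (-0.04 ± 0.31) and *Hist2h2aa2* (-0.02 ± 0.32) were near 0, and every 75-base stretch of *Hist2h2aa2* also occurs in another gene, mainly its near-identical copy *Hist2h2aa1*. Exons of 5 tested genes (*Hist3h2a*, *Hist1h2be*, *Hist2h2aa2*, *Hist1h1e* and *Hist1h2ae*) overlap those of another annotated gene, and as the strand setting is not known, reads of the partners cannot be told apart. The 47 genes below the filter summed to 1.21 to 1.89 CPM in *Ctrl* and 1.46 to 2.19 CPM in *Srsf10-kd*.

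The third *Srsf10-kd* liver weighed on many of these values. It was the highest of the 8 livers in 8 of the 18 tested genes and the lowest in 4 (*Hist1h4k*, *Hist2h4*, *Hist2h2be* and *Hist1h1d*). Without it the median log2 fold change of the 18 genes was -0.02. In the same liver the α-globin gene *Hba-a1*, an erythroid marker named after its values were seen, stood at 129.6 CPM, against 29.3 to 50.7 CPM in *Ctrl* and 41.7, 41.9 and 100.9 CPM in the other *Srsf10-kd* livers. The small RNAs that normally lack a poly(A) tail (snRNA, snoRNA and the like) summed to 53.3 CPM in it, where the other 7 livers held 27.5 to 38.8 CPM. The part of either in the histone values was not tested.

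The replication-independent histones were set beside the clustered genes. Of 11 genes 10 were tested, 9 had estimates above 0 and 1 below, and their median log2 fold change was 0.32 (0.24 with the length trend removed). edgeR called 0 of them (3 at an unadjusted p under 0.05, *H2afv*, *H2afx* and *Cenpa*, where 21.8% of all tested genes had such a p), DESeq2 called 0, and limma-voom called *Cenpa*, the centromeric H3 (0.51, adjusted p = 0.0374), a tool that called 11.7% of all genes. *Cenpa* lay at 2.31 to 3.19 CPM in *Ctrl* and 3.69 to 4.24 CPM in *Srsf10-kd*, with edgeR 0.45 ± 0.14 (adjusted p = 0.151). *H2afy* was the other of 10 genes whose groups did not overlap (14.3% of all tested genes), at 60.1 to 64.0 and 66.2 to 77.7 CPM (0.18 ± 0.09, adjusted p = 0.276). *H2afv*, *H2afj* and *H2afx* had 0.53 ± 0.23, 0.43 ± 0.23 and 0.38 ± 0.16, and the third *Srsf10-kd* liver was the highest for each. Without that liver they had 0.22, 0.16 and 0.26, and the median of the 10 genes was 0.19. *H3f3a* had 0.33 ± 0.15, *H2afy2* 0.30 ± 0.22, *H2afz* 0.29 ± 0.17 and *H3f3b* 0.11 ± 0.13, and *H1f0* was the gene below 0, at -0.15 ± 0.12. *H1fx* lay below the filter. Whether these differences exceed those of the clustered genes was not tested.

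Genes that make and process histone mRNA were next examined. Of 19 such genes 18 were tested, 6 with estimates above and 12 below 0 (median log2 fold change -0.12). edgeR called 0 of them, with *Lsm1* higher and *Npat*, *Casp8ap2*, *Cstf2* and *Eri1* lower at an unadjusted p under 0.05, while DESeq2 and limma-voom each called *Casp8ap2* (FLASH, which helps to cut histone pre-mRNA), named after its value was seen, with adjusted p of 0.0484 and 0.0285. It lay at 7.43 to 9.21 CPM in *Ctrl* and 6.38 to 6.87 CPM in *Srsf10-kd* (edgeR log2 fold change -0.36 ± 0.11, adjusted p = 0.150). *Npat*, the activator of histone gene transcription, lay at 6.53 to 8.69 and 5.55 to 6.31 CPM (-0.37 ± 0.13, adjusted p = 0.165). *Slbp* lay at 9.85 to 10.2 and 10.7 to 11.8 CPM, above every *Ctrl* liver in 4 of 4 *Srsf10-kd* livers (0.19 ± 0.09, adjusted p = 0.254). Groups did not overlap in 6 of the 18 genes, those 3 with *Cpsf2*, *Cstf2* and *Eri1*, all of which, like *Lsm1*, were named after their values were seen, except *Npat* and *Slbp*. Over all tested genes 14.3% had groups that did not overlap, 21.8% an unadjusted p under 0.05, and 5.21% and 11.7% were called by DESeq2 and limma-voom. With the length trend removed the log2 fold change was -0.13 for *Casp8ap2* (edgeR adjusted p = 0.701), -0.17 for *Npat*, -0.04 for *Cstf2*, -0.09 for *Eri1*, -0.01 for *Cpsf2* and 0.18 for *Slbp*. *Lsm10* and *Lsm11*, of the U7 snRNP, had 0.18 ± 0.14 and -0.21 ± 0.14, and both estimates lay on the other side of 0 with the length trend removed (-0.13 and 0.03). *Zfp473*, another U7 factor, lay below the filter. Of 11 genes of poly(A) tailing and decay 5 were above and 6 below 0 (median -0.15), and edgeR, DESeq2 and limma-voom called 0. In edgeR *Papolg*, *Dis3* (both lower) and *Pabpn1* (higher), named after their values were seen, had an unadjusted p under 0.05, 3 of 11 genes where the share of all tested genes was 21.8%. The other 6 symbols on that list had no match in the table.

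Clustered histone mRNA normally follows S phase, so genes of DNA replication were taken as a measure of it. Of 32 genes 31 were tested, 21 with estimates above and 10 below 0 (median log2 fold change 0.08), and edgeR, DESeq2 and limma-voom each called 0 (2 at an unadjusted p under 0.05 in edgeR, *Mcm7* and, named after its value was seen, *Pola1*, both lower, where 21.8% of all tested genes had such a p). *Mki67* and *Top2a*, proliferation genes, stood at 0.855 to 1.52 and 1.12 to 1.98 CPM over the 8 livers, with log2 fold changes of -0.01 ± 0.22 and 0.23 ± 0.20. *Mki67* had 0.33 with the length trend removed. *Pcna*, the sliding clamp, had 0.21 ± 0.15, *Tyms*, which makes thymidylate, 0.13 ± 0.11 and *Rrm2*, a subunit of ribonucleotide reductase, 0.08 ± 0.25. Among the 6 helicase genes *Mcm2* to *Mcm7* estimates ran from -0.33 (*Mcm2*) to 0.08 (*Mcm6*). *Mcm7* had groups that did not overlap (11.8 to 13.8 and 10.4 to 11.4 CPM, -0.25 ± 0.10, edgeR adjusted p = 0.196). Such groups were found in 2 of the 31 tested genes, *Mcm7* and *Pola1*, and in 14.3% of all tested genes.

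Markers of the cell types in liver were summed to see what else differed between the libraries. All 8 hepatocyte markers were tested, and their sum was 81310 to 107400 CPM in *Ctrl* and 97810 to 115100 CPM in *Srsf10-kd*, which fits the tissue label. The 5 cholangiocyte markers summed to 31.4 to 39.1 CPM in *Ctrl* and 46.5 to 68.5 CPM in *Srsf10-kd*, and the 10 lymphocyte markers in the table to 21.2 to 38.3 and 40.2 to 44.6 CPM, most of it from *Jchain*, a plasma cell gene. Most of the cholangiocyte sum came from *Spp1* (17.8 to 26.6 and 27.1 to 44.7 CPM). Neither pair of sums overlapped between groups. By gene, groups did not overlap in 2 of the 5 cholangiocyte markers (*Spp1* and *Krt19*). They did not overlap in 1 of the 9 tested lymphocyte markers (*Jchain*), of which 4 had estimates above and 5 below 0. Over all tested genes the share without overlap was 14.3%. These 3 genes were named after their values were seen. The macrophage, endothelial, stellate and neutrophil sums overlapped between groups, and no marker of these lists in the table was at 0 in all livers. Within them, groups did not overlap in 2 of the 6 endothelial markers, *Lyve1* (higher) and *Oit3* (lower), also named after their values were seen. They overlapped in every tested macrophage, stellate and neutrophil marker. The part of these cell types in the histone levels was not tested.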

How the data were processed

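RNA from 8 flash-frozen livers was poly(A)-selected and sequenced as paired 75-base reads. Per the submitters' processing notes and the study's methods, the authors aligned reads with STAR 2.7.7a to GRCm38 and deposited unnormalised read counts per Ensembl gene. The annotation release and the strand setting are not given in the sources used here. STAR counts only uniquely placed reads, which lowers counts in near-identical histone genes.

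From these counts, edgeR 4.0.16 (R 4.3.3) was run on all 8 livers: TMM, filterByExpr, quasi-likelihood test on group, two-sided, Benjamini-Hochberg over all 15491 genes tested. CPM were counts over TMM-scaled library sizes. DESeq2 1.42.0, limma 3.58.1 (voom with quality weights), other scalings and filters, a replicate block, removal of a lowess trend on transcript length (span 0.5) and leaving out each liver were alternatives. Fits were tested on simulated counts in which only genes above the level of most members were changed. That test set no limit on false calls by DESeq2. Names, transcripts and sequences came from GENCODE M21, where 45143 identifiers had a name. A stem-loop was within reach of an end at 100 bases. No pair of livers agreed within sampling noise (for 28 pairs, chi-square divided by its degrees of freedom was at least 46.5). Labels do not say whether livers were processed in batches, and p-values measure the spread between these livers. Named genes were the 12 most abundant members, up to 4 tested members with the largest estimates in each direction, the top member of each class, the replication-independent histones and listed processing and replication genes. The members and lists were chosen with earlier results of these data known. No score over the members was tested. The summed erythroid markers are not reported here.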

Additional observations from a re-analysis of the deposited data

Results flagged for a closer look

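In 5 of 42 groups of 4 livers examined, 1 liver lay farther from the others than Dixon's 95% critical value (0.829) allows, where chance gives about 1 in 20 groups, or 2.1 of 42. All 5 were *Srsf10-kd* groups. *Hist1h2bc* stood at 203.9 CPM in the third *Srsf10-kd* liver, with the other 3 between 99.7 and 116.7. In the same liver *Hist1h4i* stood at 4.24 CPM (others 1.48 to 1.92) and *Hist1h4h* at 2.59 CPM (others 0.692 to 0.998). In the fourth *Srsf10-kd* liver *Hist2h2aa2* stood at 0.232 CPM, with the others between 0.327 and 0.331, and the summed level of the genes below the count filter stood at 2.19 CPM, with the others between 1.46 and 1.56. These last values rest on few counts.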

How the results depend on the processing

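No clustered histone gene was called under any alternative run, whether by tool, scaling, filter, replicate block, length correction or leaving out a liver. The summed level, recomputed under the other scalings, without the most abundant genes, without genes whose exons overlap another and without each liver, kept a log2 ratio above 0, from 0.07 (without the third *Srsf10-kd* liver) to 0.36 when a liver was left out and 0.0083 without *Hist1h2bc*. All genes called numbered 11 in edgeR, 819 in DESeq2, 1814 in limma-voom, 46 without a filter and 6 with the length trend removed, and between 0 and 544 when a liver was left out (544 without the third *Ctrl* liver, and 0 without *Ctrl* replicate 2 or *Srsf10-kd* replicate 1, 2 or 4). Low counts limit most members, and the cause of the changes below was not tested.

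The following log2 fold changes lay on the other side of 0 under an alternative. With limma-voom these were *Hist1h1c* (0.23), *Hist2h2aa2* (0.31), *Mcm3* (0.0823), *Mcm5* (0.0217) and *Rrm2* (-0.23). With the length trend removed these were *Hist1h4h* (-0.16), *Hist2h3c2* (-0.0137), *Hist1h4c* (-0.0432), *Lsm10* (-0.13), *Lsm11* (0.0292), *Mki67* (0.33) and *Rrm2* (-0.0275). Leaving out each liver gave ranges across 0 for *Hist1h1c* (-0.18 to 0.13), *Hist1h4h* (-0.23 to 0.54), *Hist1h2be* (-0.29 to 0.14), *Hist2h2aa2* (-0.26 to 0.15), *Mki67* (-0.17 to 0.11), *Mcm3* (-0.20 to 0.0608), *Mcm4* (-0.0784 to 0.16), *Mcm6* (-0.0105 to 0.21) and *Rrm2* (-0.22 to 0.22).

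Correlations between livers with the same replicate number were -0.176, 0.213, 0.265 and 0.217, so 3 of 4 pairs deviated together weakly and 1 did not. Nothing in the labels ties the numbers to a shared origin, and the livers were not treated as paired. In an edgeR fit with a replicate block 59 genes passed, 0 of them clustered histone genes, and *Hist2h2aa2* moved to 0.0117.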

Other observations

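RefSeq promoters (GRCm38.p6, 250 bases before to 50 after the start) were at hand for 60 of the 65 genes, not including *Hist1h2bc*. The octamer ATTTGCAT, searched on both strands, was found in 13 of them, 7 H2A and 6 H2B genes, against 1.97% of the 27025 genes with a promoter in the table. CCAAT was found in 51 (85.0%, against 41.1% of all genes), which was every H1, H2A, H2B and H3 promoter and 3 of 12 H4 promoters. TATAAA was found in 35 (58.3%, against 15.7%). A match is a description of the letters and not of binding.

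Small RNAs that normally lack a poly(A) tail were counted in the same libraries. Of 2945 such genes in the table, 2361 had no count and 51 were tested. Of the 51, 34 had estimates above and 17 below 0 in *Srsf10-kd* against *Ctrl*, where 51.3% of all tested genes were above. The median log2 fold change was 0.29, and -0.17 with the length trend removed. Groups did not overlap in 7 of the 51, against 14.3% of all tested genes. edgeR called 0, DESeq2 2 and limma-voom 5 genes of the list, where they called 0.071%, 5.21% and 11.7% of all genes. Clustered histone pseudogenes numbered 3 in the table and none was tested.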
